A study of Homo sapiens with 6 samples.

Results

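The 5 genes of the FERRY complex and the 3 RAB5 paralogues were followed in RNA that was recovered by precipitating a myc-tagged protein from HEK cells. FERRY3 (named C12orf4 in the gene tables), TBCK, PPP1R21, CRYZL1 and GATD1 encode the FERRY subunits, and RAB5A, RAB5B and RAB5C encode the GTPases. The 8 were taken by gene name, each matched 1 of the 60671 Ensembl IDs of the count table, and all 8 passed the filter on low counts.

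HEK is a line derived from human embryonic kidney. The series concerns the carriage of Pink1 mRNA on neuronal mitochondria, and its labels describe the libraries as RNA that binds SYNJ2BP, a protein of the outer mitochondrial membrane, or its AAA mutant. One group of 3 libraries is labelled wild-type control (WT.Control, treatment given as untreated) and the other 3 libraries are labelled SYNJ2BP AAA mutant (AAA.mito). Cells of both groups were transfected with calcium phosphate, and RNA of both was depleted of ribosomal RNA after the precipitation. The labels do not give what the control cells express, which residues AAA stands for or what mito adds, so the mutation need not be the sole difference between the groups. Nothing in the labels says that replicates came from separate cultures, and p-values therefore measure the spread between libraries, which may be technical.

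RAB5 is a small GTPase that defines the early endosome. It cycles between a GTP-bound form, which recruits effector proteins to the membrane, and a GDP-bound form. FERRY is one of these effectors: it binds active RAB5 and also binds mRNA, mRNAs for mitochondrial proteins among them, and so links transcripts to early endosomes. Among its subunits, PPP1R21 is a coiled-coil protein that forms the scaffold and contacts RAB5, TBCK has TBC and pseudokinase domains, and CRYZL1 and GATD1 resemble metabolic enzymes. Loss of TBCK or PPP1R21 causes neurodevelopmental disease in people.

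The RAB5 paralogues are alike in protein, so their coding sequences were compared to see how far reads of one could be taken for another. Over the coding bases, RAB5A was 72.6% identical to RAB5B and 72.7% to RAB5C, and RAB5B was 76.9% identical to RAB5C. The longest run of bases shared without a mismatch was 14 for RAB5A and RAB5B, 17 for RAB5A and RAB5C and 26 for RAB5B and RAB5C. The stretch of 75 bases within 1 exon in which the 3 genes were most alike is printed here because it is where reads would be hardest to tell apart. It lies in exon 3 of each transcript, in the part that encodes the switch II region of the GTPase, and capitals mark the 15 positions at which the 3 genes are not all equal. The sequences are those of GENCODE release 29 transcripts on GRCh38, at chr3:19975630-19975704 on the plus strand for RAB5A, chr12:55989976-55990050 on the plus strand for RAB5B and chr17:42128697-42128771 on the minus strand for RAB5C.
RAB5A: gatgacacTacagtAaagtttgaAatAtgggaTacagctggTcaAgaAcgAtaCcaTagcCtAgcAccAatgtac
RAB5B: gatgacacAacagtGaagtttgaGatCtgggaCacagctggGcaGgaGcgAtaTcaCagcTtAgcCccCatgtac
RAB5C: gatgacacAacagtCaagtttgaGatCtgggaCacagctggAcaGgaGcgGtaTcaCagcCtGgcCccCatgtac
The differing positions are spread along the stretch. The labels give no read length. The processed pseudogene RAB5CP1 on chromosome 10 had 0 to 87 counts a library and RAB5CP2 on chromosome 5 had 0 to 9, against 48 to 3429 for RAB5C.

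Libraries held 3287218 to 73331652 counts. They differed in background, measured as the density of counts over 381 olfactory receptor genes, which serve smell and are assumed to be nearly silent in these cells. That density, spread over the spans of all nuclear genes, accounted for 37.9%, 84.4% and 7.48% of nuclear counts in control replicates 1, 2 and 3. The mutant replicates with the same numbers had 55.5%, 81.8% and 6.61%. Of the HEK markers, VIM (3.54 to 253 times background), NEFL (3.24 to 78.9) and NEFM (5.67 to 91.1) were above background in all 6 libraries. KRT18 (1.12 to 111), KRT8 (1.04 to 8.26), CDH2 (1.06 to 25.7) and PAX2 (0.907 to 4.32) were near background in mutant replicate 2. PTPRC of blood cells (0.822 to 1.44) and ALB of liver (0.443 to 1.20) lay near or below background, and COL1A1, a marker of fibroblasts, was well above it in both replicate 3 libraries (16.8 and 17.3 times).

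In control replicate 2, a library of high background, counts of TBCK, FERRY3 and PPP1R21 were close to those predicted by background over the whole gene span and far above those predicted over the exons. TBCK spans 279.9 kb with 11.1 kb of exons (GRCh38 chromosome 4, 106041599 to 106321495, minus strand). In control replicate 2, TBCK had 1313 counts, where background over the span predicts 1332 and background over the exons 52.9. FERRY3 (chromosome 12, 4487728 to 4538508, minus strand) had 220 counts there, against 241.6 by span and 23.5 by exons. PPP1R21 had 395 counts against 355.9 by span. CRYZL1 (368 against 259.7), RAB5A (288 against 181.3) and RAB5C (240 against 143.1) exceeded the span prediction, and RAB5B (126 against 108.3) did so by less. GATD1 stood furthest from it, with 246 counts against 48.9 by span, and it is also the shortest of the 8 genes (10.3 kb, chromosome 11, 767220 to 777488, minus strand).

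**Figure D1:**
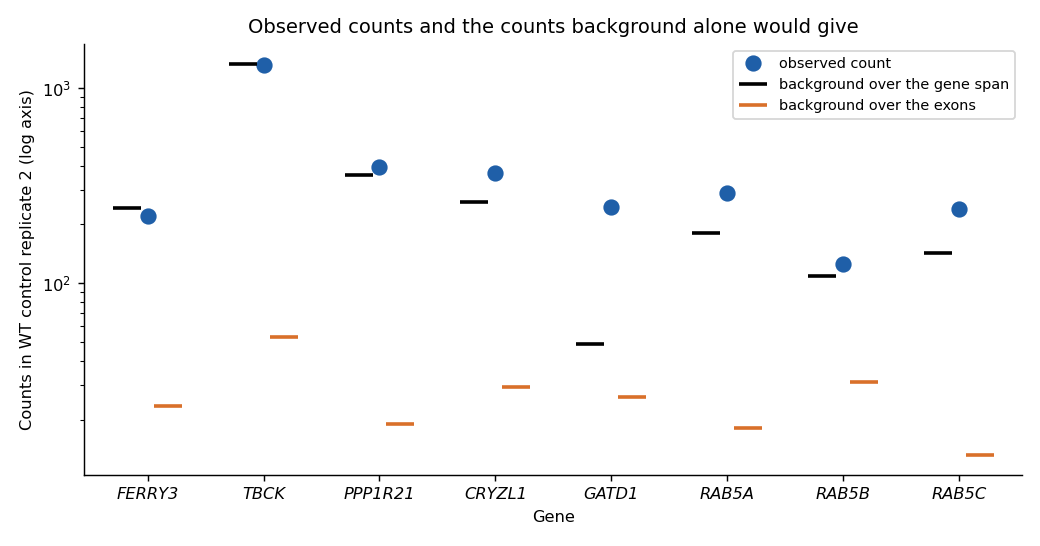
Counts of the 8 genes in wild-type control replicate 2 (dots, log axis), with the count that olfactory receptor background predicts over the gene span (black bars) and over the exons (orange bars). TBCK (1313 against 1332) and FERRY3 (220 against 241.6) sit on the span prediction, and GATD1 (246 against 48.9) lies well above it.

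Levels of different genes are therefore given per kb of span and relative to background, where 1 means no count beyond background. The FERRY subunits come first. FERRY3 had a level relative to background of 2.01, 0.911 and 16.6 in the control libraries (in the order of replicates 1, 2 and 3) and of 1.38, 0.946 and 20.9 in the mutant libraries. TBCK had levels of 1.28, 0.986 and 8.36 in the control libraries and of 0.936, 0.847 and 14.7 in the mutant libraries. PPP1R21 (chromosome 2, 48440598 to 48515391, plus strand) had levels of 1.63, 1.11 and 12.3 and, with the mutant, of 1.43, 1.16 and 18.8. For these 3 genes the replicate 3 libraries were high in both groups, and the other libraries were at or near background. TBCK in replicates 1 and 2 of the mutant and in replicate 2 of the control did not exceed background at this depth.

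The enzyme-like subunits were somewhat further from background. CRYZL1, which resembles quinone oxidoreductases (chromosome 21, 33589341 to 33643926, minus strand), had levels of 2.22, 1.42 and 17.8 in control libraries and of 2.73, 1.35 and 25.2 in mutant libraries. GATD1, which has a glutamine amidotransferase-like domain, had levels of 32.0, 5.04 and 141 in control libraries and of 24.6, 7.53 and 110 in mutant libraries. GATD1 was the only one of the 8 genes far above background, meaning more than 8 times on average over the 6 libraries on the log scale. Per kb of span it was the highest of the 8 in 6 of 6 libraries.

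By mean log level per kb of span over the 6 libraries, the RAB5 paralogues lay between GATD1 and the other FERRY subunits, although RAB5B was below CRYZL1 in control replicate 2 and RAB5C was below it in mutant replicate 2. RAB5A (chromosome 3, 19947079 to 19985175, plus strand) had levels of 2.54, 1.59 and 31.7 in control libraries and of 2.93, 1.73 and 42.2 in mutant libraries. RAB5B (chromosome 12, 55973913 to 55996683, plus strand) had levels of 4.28, 1.16 and 40.9 in control libraries and of 3.10, 2.18 and 35.0 in mutant libraries. RAB5C (chromosome 17, 42124976 to 42155044, minus strand) had levels of 5.11, 1.68 and 49.3 in control libraries and of 3.65, 1.20 and 39.9 in mutant libraries. Replicate 3 was again the highest and replicate 2 the lowest in each group, and the groups overlapped for each paralogue.

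By mean log level per kb of span over the 6 libraries, the order was GATD1, RAB5C, RAB5B, RAB5A, CRYZL1, FERRY3, PPP1R21 and TBCK. The order varied in single libraries. Within libraries, GATD1 exceeded RAB5C by 2.10 ± 0.64 on the log2 scale (SD, n = 6 libraries). RAB5C and RAB5B (0.10 ± 0.49), RAB5B and RAB5A (0.13 ± 0.44) and FERRY3 and PPP1R21 (0.04 ± 0.31) did not differ beyond the spread between libraries. RAB5A exceeded CRYZL1 by 0.40 ± 0.31, CRYZL1 exceeded FERRY3 by 0.44 ± 0.34 and PPP1R21 exceeded TBCK by 0.42 ± 0.16, each in 6 of 6 libraries. These are descriptions of the 6 libraries, with no test.

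**Figure D2:**
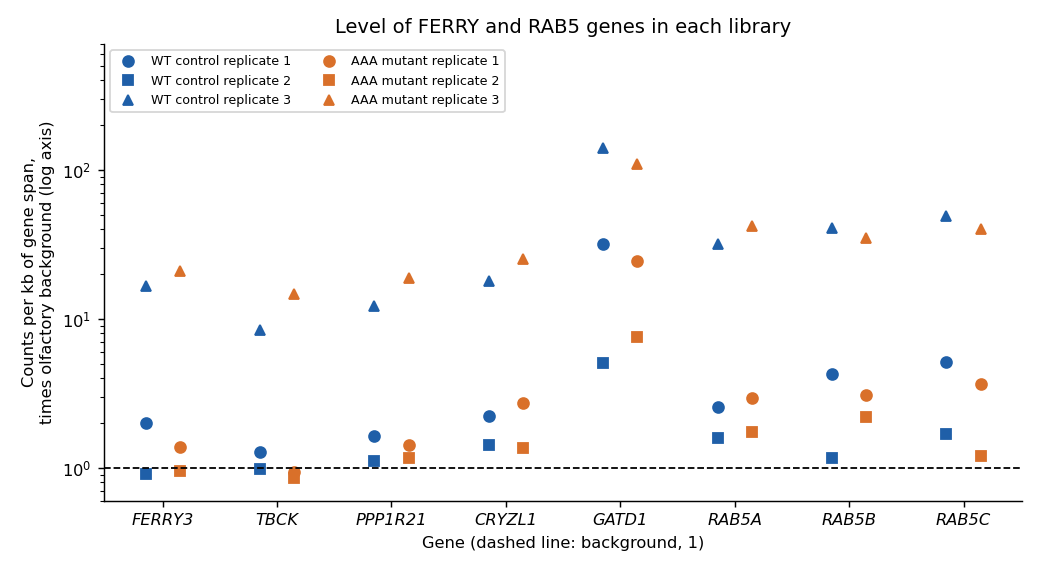
Counts per kb of gene span relative to the olfactory receptor background (log axis, dashed line at 1) for each gene in each library, with wild-type control in blue, AAA mutant in orange and the replicate number as the symbol. Replicate 3 (triangles) lies highest for every gene, and GATD1 lies above the other 7 genes in each library.

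How much of that level is certain depends on the counts. Exact Poisson 95% intervals of the counts, which cover counting error only, were set against the predicted background. In replicate 2 the interval included background for FERRY3 and PPP1R21 in the mutant, for FERRY3, TBCK and RAB5B in the control and for RAB5C in the mutant. The interval lay below predicted background for TBCK in the mutant and above it in both groups for CRYZL1, GATD1 and RAB5A. Single olfactory receptor genes with at least 20 predicted counts ranged from 0.224 (5th percentile) to 1.94 times (95th percentile) in control replicate 2, a range that also holds 7 of the 8 genes in that library, all but GATD1.

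With background taken off and the rest expressed per kb of exons and per 1000000 counts above background, RAB5C had 14.8, 21.7 and 23.1 in the control and 19.6, 5.26 and 16.3 in the mutant. RAB5A had 5.15, 17.4 and 13.6 in the control and 13.2, 18.01 and 15.98 in the mutant. RAB5B was lower on this scale, at 3.77, 1.66 and 6.06 in the control and 4.92, 9.91 and 4.53 in the mutant. GATD1 had 19.1, 22.1 and 11.5 in the control and 29.8, 29.7 and 7.81 in the mutant. On this scale the replicate 3 libraries, which had the least background, held the lowest GATD1 level of their group, and the same libraries held the highest FERRY3 level (7.07 and 7.89). GATD1 was below RAB5C and RAB5A in control replicate 3 on this scale, and in mutant replicate 3 it was above RAB5B only. TBCK had 2.31, −1.04 and 8.15 in the control and −1.10, −9.38 and 13.3 in the mutant, where values below 0 are counts under predicted background. TBCK was last by the mean on both scales, but in mutant replicate 3 it was above GATD1 on this scale. By the mean over the 6 libraries RAB5B took the sixth place of the 8, against the third by span. This scale differs from the first in the length, in subtracting background and in scaling to counts above background.

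The comparison of the groups asked whether recovery of FERRY and RAB5 transcripts differed with the AAA mutant. No difference passed the test for any of the 8 genes. Without pairing, edgeR's quasi-likelihood test called 0 of the 8 and 0 of all 33375 tested genes (0%), with 25 genes (0.0749%) at an unadjusted p under 0.05. DESeq2 also called 0, with 70 genes at that level. With libraries of the same replicate number treated as pairs, 1.41% of tested genes were called (1.40% lower and 0.00599% higher in the mutant), and again 0 of the 8. None of the 8 had an unadjusted p under 0.05 with the pairs, against 9.17% of all genes lower and 0.857% higher at that level. The log2 CPM ranges of control and mutant overlapped for 8 of 8, and they were separate for 0.446% of all genes with the mutant lower and 0.551% with the mutant higher.

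RAB5C came nearest to a difference. RAB5C had 32.0, 16.1 and 82.6 CPM in control replicates 1, 2 and 3 and 25.5, 11.1 and 56.5 CPM in the mutant. It was lower in the mutant in 3 of 3 pairs, by −0.32, −0.54 and −0.55 in log2 CPM, while the groups overlapped. Such a fall in all pairs was seen in 18.2% of all tested genes and in 39.4% of genes far above background. With background taken off, per kb of exons, RAB5C was instead higher in the mutant in pair 1 (14.8 in the control, 19.6 in the mutant). On that scale it was lower in pairs 2 (21.7 against 5.26) and 3 (23.1 against 16.3). The count interval of mutant replicate 2 included background. The log2 fold change was −0.49 ± 0.83 (SE, n = 3 per group) without the pairs and −0.47 ± 0.24 with them (95% interval −0.95 to 0.01; edgeR adjusted p = 0.527). The median of genes far above background in the paired fit was −0.51, so RAB5C lay within 0.04 of it. RAB5C itself was not far above background. Among all tested genes, whose median was −0.08, 19.2% had a paired value as low or lower.

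RAB5A was the one gene higher in all 3 pairs, a pattern found in 9.90% of tested genes. RAB5A had 20.2, 19.3 and 67.3 CPM in the control and 26.0, 20.3 and 75.7 CPM in the mutant, with pair differences of 0.37, 0.07 and 0.17. The replicate 3 libraries were the highest in both groups. The log2 fold change of RAB5A was 0.19 ± 0.79 without pairs and 0.21 ± 0.23 in the paired fit (95% interval −0.27 to 0.68; edgeR adjusted p = 0.940). RAB5B had 20.3, 8.44 and 51.9 CPM in the control and 16.4, 15.2 and 37.5 CPM in the mutant. Its pairs disagreed in direction, at −0.31, 0.85 and −0.47, and its paired log2 fold change was −0.03 ± 0.26 (95% interval −0.55 to 0.49).

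FERRY3 had 21.2, 14.7 and 47.0 CPM in the control and 16.3, 14.8 and 49.97 CPM in the mutant. Its pair differences were −0.38, 0.00 and 0.09, and its log2 fold change was −0.03 ± 0.75, or −0.09 ± 0.23 with the pairs (95% interval −0.57 to 0.38). The groups were nearly equal for FERRY3 in replicates 2 and 3, but in replicate 2 its counts were background. PPP1R21, the scaffold, had 25.4, 26.5 and 51.2 CPM against 24.8, 26.8 and 66.2 CPM, and a paired log2 fold change of 0.13 ± 0.23 (95% interval −0.35 to 0.60). Its difference came from replicate 3 (0.37), with −0.03 and 0.02 in the other pairs.

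TBCK had 74.4, 88.0 and 130 CPM in the control and 60.9, 72.97 and 194 CPM in the mutant. It was lower in the mutant in pairs 1 and 2 (−0.29 and −0.27) and higher in pair 3 (0.57), the only pair in which both of its libraries were clear of background. The paired log2 fold change of TBCK was 0.01 ± 0.28 (95% interval −0.56 to 0.58). CRYZL1 had 25.2, 24.7 and 54.2 CPM against 34.6, 22.6 and 64.9 CPM, with pair differences of 0.46, −0.12 and 0.26 and a paired log2 fold change of 0.21 ± 0.24 (95% interval −0.27 to 0.69).

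GATD1 gives the measurement least touched by background. GATD1 had 68.3, 16.5 and 80.6 CPM in control replicates 1, 2 and 3 and 58.7, 23.8 and 53.1 CPM in the mutant. Its pair differences in log2 CPM were −0.22, 0.53 and −0.60, so 2 pairs were lower and 1 higher in the mutant. With background taken off, per kb of exons, pair 1 changed direction (19.1 in the control, 29.8 in the mutant). On that scale pair 2 was also higher in the mutant (22.1 against 29.7) and pair 3 lower (11.5 against 7.81). The log2 fold change was −0.29 ± 0.75, and −0.13 ± 0.25 with the pairs (95% interval −0.64 to 0.39; edgeR adjusted p = 0.978).

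**Figure D3:**
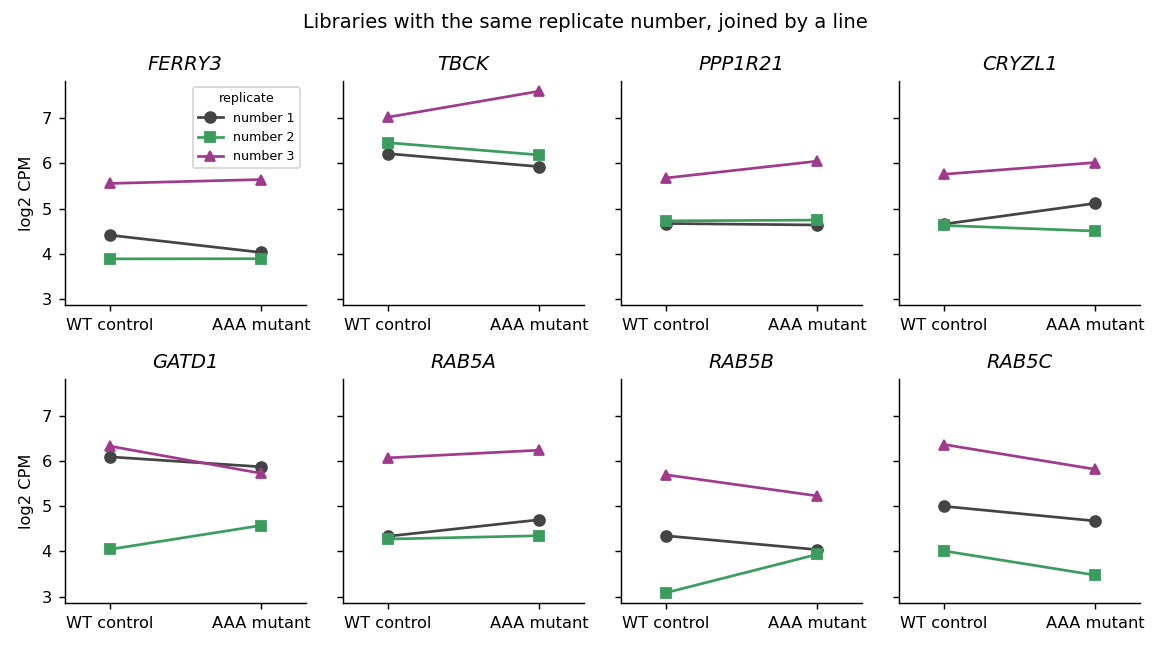
Log2 CPM of each gene in the control and mutant libraries, with libraries of the same replicate number joined. RAB5C falls in all 3 pairs and RAB5A rises slightly in all 3, and the lines of the other 6 genes do not share a direction.

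As a group, the 8 genes had a median paired log2 fold change of −0.01, beside −0.08 for all tested genes and −0.51 for genes far above background. The 95% intervals of the 7 genes other than RAB5C reached from −0.64 (GATD1) to 0.69 (CRYZL1). Signs were not stable under scaling: with factors from genes far above background, which moved the median of all genes from −0.08 to 0.40 and that of the far genes from −0.51 to 0.03, all 8 paired values were above 0 (0.02 to 0.69), and none passed, with 0.024% of all genes called there. Background moved with the pairs too, since it was larger in the mutant than in the control in pair 1 (55.5% against 37.9%); its part in the values was not tested.

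**Figure D4:**
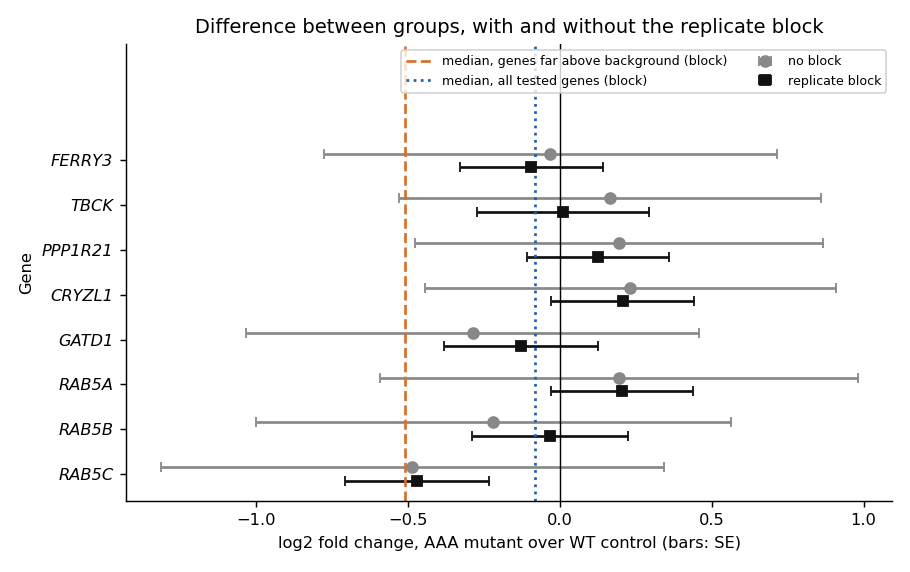
Log2 fold change of each gene, AAA mutant over wild-type control, without pairs (grey dots) and with the replicate block (black squares), with SE bars. All 8 paired values lie between −0.47 (RAB5C) and 0.21 (CRYZL1 and RAB5A), and RAB5C alone lies near the median of genes far above background (dashed, −0.51).

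Over the 6 libraries the log2 CPM of most of these genes varied together, and these libraries share replicate numbers and differ in background. RAB5A and CRYZL1 had r = 0.98 and TBCK and PPP1R21 had r = 0.97 (n = 6 libraries), whereas GATD1 had 0.24 with TBCK and 0.40 with PPP1R21. Among 3055 protein-coding genes far above background, the genes most like RAB5A were the ubiquitin ligase RNF138 (r = 0.997), RPRD1A, which binds RNA polymerase II (0.988), and HAUS3, a subunit of the augmin complex (0.986). Those most like TBCK, the FERRY gene with the highest CPM, were the corepressor TLE4 (r = 0.964), the histone deubiquitinase MYSM1 (0.947) and UPF3B of nonsense-mediated decay (0.944). Of the 3055 genes, 59 had r over 0.95 with RAB5A and 1 with TBCK. Counts of TBCK did not exceed background in control replicate 2 or mutant replicates 1 and 2, so its pattern there is that of background.

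Genes around RAB5 were then read from 5 lists holding 72 different tested genes, of which 1 fell and 0 rose with the pairs, beside 1.40% and 0.00599% of all genes. Without the pairs 0 passed. Few of these genes were far above background: 0 of 8 exchange factors, 1 of 25 effectors and tethers and 1 of 10 for inactivation and the RAB7 switch. The same held for 0 of 12 related and recycling RABs and 3 of 18 sorting genes. A lack of calls in the lists is therefore read from counts that often hold much background. VPS18, a core subunit of the CORVET and HOPS tethers that act with RAB5 and RAB7, was the gene that fell. VPS18 had 50.5, 4.56 and 31.2 CPM in the control and 18.1, 0 and 16.2 CPM in the mutant. The 0 of mutant replicate 2 stands for at most 0.693 CPM (a limit of 3 counts), in a library where background predicts 12.7 counts for this gene. Control replicate 2 had 68 counts of VPS18, where background predicts 45.4. Its paired log2 fold change was −1.48 ± 0.31 (edgeR adjusted p = 0.00763), and without the pairs −1.31 ± 1.304. The call was lost without replicate number 1 (−1.55, adjusted p = 0.0671), number 2 (−1.03, adjusted p = 0.0853) or number 3 (−2.02, adjusted p = 0.470). It was also lost in the paired fit with background subtracted (−1.525, edgeR adjusted p = 0.993), which called 0 of all genes. The scaling by genes far above background lost it too (−1.01, adjusted p = 0.580) and called 0.024% of all genes, all lower.

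Upstream of RAB5, 0 of 8 exchange factors, which load it with GTP, passed, and their median paired log2 fold change was 0.12. GAPVD1, one of these factors, had −0.57 ± 0.31 (edgeR adjusted p = 0.587). GAPVD1 was lower in the mutant in pairs 1 and 2 (−1.28 and −0.54) and slightly higher in pair 3 (0.08).

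Downstream, VPS18 was the 1 of 25 tested effectors and tethers that fell, and the list's median was −0.19. Of 10 genes listed for RAB5 inactivation and the switch to RAB7, RAB7A and regulators of RAB7 among them, 0 passed, with a median of −0.08. MON1B (−0.82 ± 0.26, edgeR adjusted p = 0.127) and MON1A (−0.59 ± 0.25, adjusted p = 0.339), which with CCZ1 activate RAB7, had the smallest p-values, and for both genes 3 of 3 pairs were lower in the mutant.

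Of 12 RAB5-related and recycling RABs 0 passed (median −0.06), with RAB35 at −0.50 ± 0.25 (edgeR adjusted p = 0.512) and RAB14 at −0.34 ± 0.24 (adjusted p = 0.795). Of 18 genes of ESCRT-0, retromer and related endosomal sorting 0 passed (median −0.08). HGS, the ESCRT-0 subunit that binds ubiquitinated cargo, had −0.86 ± 0.30 (edgeR adjusted p = 0.187), and VPS35 of retromer had −0.72 ± 0.27 (adjusted p = 0.238). HGS was higher in the mutant in pair 2 (0.15) and lower in pairs 1 and 3 (−1.50 and −1.04).

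**Figure D5:**
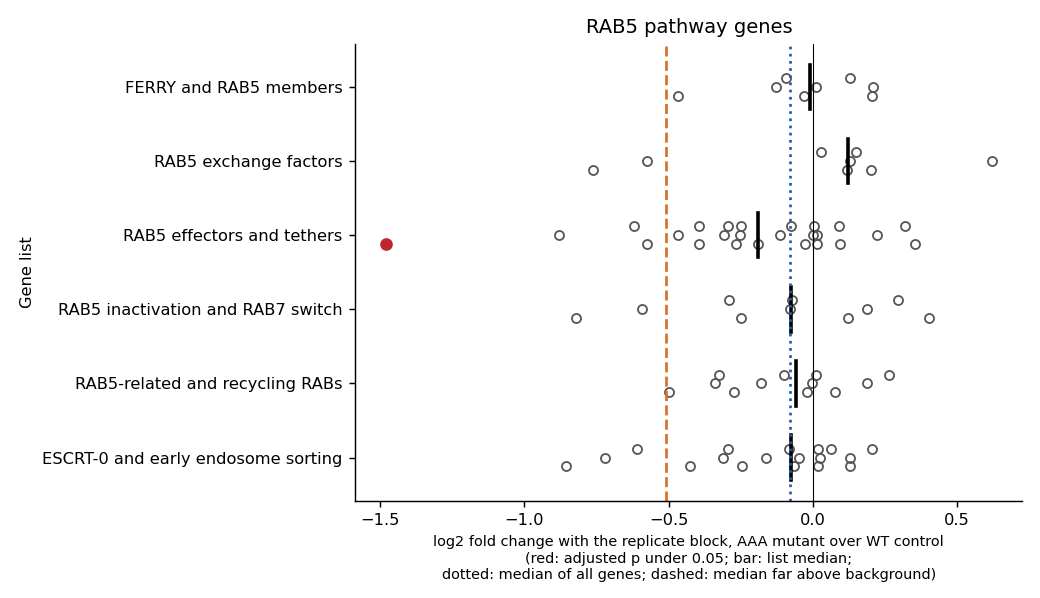
Paired log2 fold change of the 8 genes and of each tested gene of 5 RAB5 pathway lists, with list medians as black bars. VPS18 (red, −1.48) is the one gene past the threshold. The list medians lie between −0.19 and 0.12, nearer to the median of all genes (dotted, −0.08) than to that of genes far above background (dashed, −0.51). Most list genes are themselves not far above background (0 to 3 in a list are).

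Neighbouring annotations limit some of these values, because how featureCounts treated strand and overlaps is not stated. RAB5C shares 29941 of its 30069 bases with the same-strand gene ENSG00000267261, and the counts of the latter (584, 298 and 3959 in the control, 270, 61 and 3580 in the mutant) followed those of RAB5C (444, 240 and 3429, and 224, 48 and 3041). The antisense gene RAB5C-AS1 had 97, 15 and 557 against 54, 3 and 389. CRYZL1 lies wholly inside ENSG00000249209, a gene of 14716 counts in control replicate 3 where CRYZL1 had 2250. TBCK overlaps AIMP1 over 5952 bases and RAB5A overlaps PP2D1 over 5215 bases, both on the opposite strand. FERRY3 and GATD1 overlapped no other annotated gene.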

How the data were processed

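Raw counts per gene were deposited as whole numbers in 6 columns. The authors used STAR 2.7.6a, FastQC and featureCounts, per the submitters' processing notes; build, annotation, strand and overlap settings: not given in the sources used here. Positions came from GENCODE release 29 (58453 of 60671 IDs). The test was edgeR 4.0.16 in R 4.3.3 (filterByExpr, TMM, quasi-likelihood F test, Benjamini-Hochberg over 33375 genes, threshold 0.05), without a block as the main fit. A prior count of 1 entered log2 CPM, and an SE is the log2 fold change's size over the root of F. The code was tested on simulated data. Deviations of libraries with the same number from their group means correlated at r = 0.41, 0.76 and 0.90, so numbers were also treated as pairs. Those of libraries with unlike numbers correlated at −0.81 to 0.27. Centring on means of 3 libraries pushes these values down when those of like numbers are above 0, so they are not a separate check. Background and depth also differed by number, and the labels do not state a shared day. The block cannot tell these apart. DESeq2 1.42.0, other scalings, background subtraction, no filter and left-out libraries were alternatives. Members and lists were chosen with earlier results of these data known. Named list genes were called members (up to 4) or the 2 smallest paired p-values; genes most like RAB5A and TBCK, the RAB5 and FERRY genes of highest average log2 CPM, were the 3 of highest r. Of 26 effectors, 25 were matched by symbol. The values of 2 genes taken by these rules are not reported here.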

Additional observations from a re-analysis of the deposited data

How the results depend on the processing

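None of the 8 genes passed in any of the 16 alternatives, and their direction often changed. Values that changed sign with scaling from genes far above background were FERRY3 (0.26, and 0.39 with the replicate block), GATD1 (0.42 and 0.37), RAB5B (0.53 and 0.48) and, with the block only, RAB5C (0.023). Upper quartile factors gave 0.11 for FERRY3 and 0.052 for RAB5B, and no filter on low counts gave 0.13 for FERRY3. With background subtracted and the replicate block, TBCK had −2.11, GATD1 0.070 and RAB5B 0.66; most TBCK counts outside replicate 3 are removed by this construction. Leaving out 1 library at a time gave −0.81 to 0.79 for FERRY3, −0.52 to 0.63 for TBCK, −0.39 to 0.79 for PPP1R21, −0.24 to 0.90 for CRYZL1, −0.73 to 0.24 for GATD1, −0.59 to 1.25 for RAB5A, −0.74 to 0.86 for RAB5B and −1.20 to 0.58 for RAB5C. The lowest values came without mutant replicate 3, except for GATD1 (without control replicate 2), and the highest without control replicate 3. Leaving out a pair in the blocked fit gave −0.21 to 0.034 for FERRY3, −0.29 to 0.31 for TBCK, −0.019 to 0.34 for PPP1R21, 0.01 to 0.52 for CRYZL1, −0.25 to 0.12 for GATD1, 0.06 to 0.43 for RAB5A, −0.22 to 0.23 for RAB5B (0.060 without number 1) and −0.60 to −0.27 for RAB5C. The replicate block raised the count of called genes from 0 to 469 and that of effectors and tethers from 0 to 1 (VPS18), and changed no call among the 8 genes. With the block the count was 8 with scaling from genes far above background, and 0 to 259 when a pair was left out (37 without number 1, 259 without number 2, 0 without number 3). The cause of these changes was not tested. Ranked by counts above background per kb of exons, which also changes subtraction and scaling, RAB5A came 3rd (from 4), CRYZL1 4 (from 5), PPP1R21 5 (from 7), RAB5B 6 (from 3) and FERRY3 7 (from 6). Background limits the counts in replicate 2 for all genes but GATD1, whose CPM still depends on library totals that hold background.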
